A study of Homo sapiens with 36 samples.

Results

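LINC01882, PTPN2, PSMG2 and SEH1L are neighbouring genes on the short arm of chromosome 18, and their RNA was followed in a human T cell line after activation of RELA. They are 4 of the 74628 genes in the count table, taken by symbol. The set was chosen by the difference in RNA level between the guides, already known from these data, and by position, so all differences between the guides for these 4 genes are given as a description and without a test. The cells were Jurkat, a T lymphocyte leukaemia line, stably expressing dCas9-VP64 and labelled mCherry+. dCas9-VP64 is a nuclease-dead Cas9 fused to a transcriptional activator, which a guide RNA brings to a promoter (CRISPR activation). The sgRELA group received a lentiviral guide against RELA and the sgControl group a guide labelled non-targeting. Puromycin selection lasted 3 days in both groups. Cells were harvested on day 5, 6 or 7 after transduction, and each combination of guide and day has 3 biological replicates. Each of the 18 RNA samples gave 2 RamDA-seq libraries of 100 pg of total RNA each, and the counts of both were added. The labels name 1 guide for RELA, so effects of that guide and of RELA itself cannot be told apart, and untransduced cells were not analysed here.

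LINC01882 is a long noncoding RNA gene. PTPN2 encodes TC-PTP, a phosphatase that removes phosphate from tyrosines of JAK kinases, STAT factors and the kinases LCK and FYN, and so dampens cytokine and T cell receptor signalling. PSMG2 encodes a chaperone that helps to assemble the ring of alpha subunits of the proteasome. SEH1L encodes a WD-repeat protein shared by the Nup107-160 complex, a scaffold of the nuclear pore, and by GATOR2, which takes part in amino acid sensing upstream of mTORC1. RELA encodes p65, a subunit of the transcription factor NF-kB, which binds a short DNA motif called the kappa-B site.

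In GENCODE v29 on GRCh38, PSMG2 lies at chr18:12658043-12725740 on the plus strand, LINC01882 at chr18:12739490-12776137 on the minus strand, PTPN2 at chr18:12785478-12929643 on the minus strand and SEH1L at chr18:12947133-12987536 on the plus strand. LINC01882 therefore sits between PSMG2, 13.7 kb away, and PTPN2, whose 3′ end is 9.34 kb from it. RefSeq gives LINC01882 a shorter body, at chr18:12739486-12749422, and which gene model the authors counted is not given in the sources used here. The start windows of both genes that were higher with sgRELA are printed here, from RefSeq on GRCh38.p14, minus strand, 250 bases before to 50 bases after the annotated start. Capitals mark a match to the kappa-B consensus. The LINC01882 window is chr18:12749373-12749672 and the PTPN2 window is chr18:12840913-12841212, a start inside the PTPN2 gene. The 5′ end of the whole PTPN2 gene lies elsewhere, at 12929643 in GENCODE v29 and 12884237 in RefSeq. No window at that end was searched, so the PTPN2 result below covers the inner start only.
LINC01882: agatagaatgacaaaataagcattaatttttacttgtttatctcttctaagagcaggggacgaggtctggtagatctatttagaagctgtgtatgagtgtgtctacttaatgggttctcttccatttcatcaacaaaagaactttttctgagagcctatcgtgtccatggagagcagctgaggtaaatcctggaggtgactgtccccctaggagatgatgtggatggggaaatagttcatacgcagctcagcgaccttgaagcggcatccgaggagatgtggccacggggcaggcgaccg
PTPN2: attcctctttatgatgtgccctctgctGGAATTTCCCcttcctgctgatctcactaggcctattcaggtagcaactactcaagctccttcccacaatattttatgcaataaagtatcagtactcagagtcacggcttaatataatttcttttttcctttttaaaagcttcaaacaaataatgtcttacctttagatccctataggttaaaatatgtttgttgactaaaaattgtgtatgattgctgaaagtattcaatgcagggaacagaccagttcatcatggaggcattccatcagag
The LINC01882 window held no kappa-B match on either strand, and the PTPN2 window held 1, GGAATTTCCC. Of the other windows, the 2 of PSMG2 and the 1 of SEH1L held none. Over all 35116 RefSeq windows of this length, 11.3% held at least 1 match. The first 150 bases of both GENCODE transcripts of LINC01882, which start at another place, held none either. These bases lie within the transcripts. No sequence before the GENCODE starts was searched, so the LINC01882 result does not cover a promoter there. These are matches of letters only, and no binding was measured.

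The 36 libraries held 7586205 to 16124473 counts, and the 18 sums of library pairs 18769530 to 29503934. RELA reached 20.2 to 39.3 CPM (counts relative to library size, scaled by TMM) in the sgControl samples and 119.8 to 318.5 CPM in the sgRELA samples, so every library sum matched its guide label. Its level in sgRELA was not the same on each day, with means of 293.7, 201.1 and 127.2 CPM on days 5, 6 and 7, against 33.3, 24.0 and 24.7 CPM in sgControl. Whether this bears on the guide differences by day below was not tested. All 10 T cell markers had a median of at least 10 CPM. Of 14 markers of B, myeloid, erythroid, epithelial, fibroblast and endothelial cells, 11 had a median under 1 CPM, with HBB and EPCAM at no count and the B cell genes MS4A1 and CD79B near 0. Their summed level was nevertheless 94.1 to 116 CPM in sgControl and 130 to 160 CPM in sgRELA, and CD79A, a B cell receptor component, was the 1 of them called between the guides (log2 fold change 1.498 ± 0.08, SE, summed over days, adjusted p = 3.88e-11 by edgeR's quasi-likelihood test). PECAM1, an endothelial marker, made up most of this sum, with 75.9 ± 1.69 and 84.8 ± 3.64 CPM with the days summed (adjusted p = 0.533, edgeR). The T cell markers summed to 2910 to 3650 CPM in sgControl and 3060 to 3830 CPM in sgRELA. Of the 10, CD28, a costimulatory receptor gene, was called between the guides on day 6 (0.60 ± 0.11, adjusted p = 0.00657, edgeR) and summed over days (0.31 ± 0.06, adjusted p = 0.0177). The call on day 6 was lost without sgRELA replicate 1, and the summed call without replicate 1 or 2 of either guide. Any part of these differences in the results was not tested. In these bulk samples, more RNA per cell and more cells with the RNA cannot be told apart.

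LINC01882 was higher with sgRELA on all 3 days, by 2.54-fold, 3.43-fold and 1.92-fold. In sgControl its level was 55.6, 62.43 and 58.57 CPM on day 5, 60.95, 63.96 and 68.39 CPM on day 6, and 112.1, 112.6 and 111.0 CPM on day 7. In sgRELA it was 155.1, 145.7 and 147.0 CPM on day 5, 207.1, 232.6 and 224.3 CPM on day 6, and 202.0, 227.9 and 214.1 CPM on day 7. The lowest sgRELA sample of any day stood above the highest sgControl sample of any day. The log2 fold change, sgRELA over sgControl, was 1.34 ± 0.09 (SE, n = 3 against 3) on day 5, 1.78 ± 0.09 on day 6 and 0.94 ± 0.09 on day 7. With the days summed per guide and replicate number, the means were 79.1 ± 1.56 CPM (SD, n = 3) and 192.5 ± 7.04 CPM, which is 1.28 ± 0.05 on the log2 scale.

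The LINC01882 difference was thus widest on day 6 and narrowest on day 7. From day 6 to day 7 the log2 fold change between guides was lower by 0.84 (difference -0.84, 95% interval -1.089 to -0.591). In that step the sgControl samples moved from about 64.4 to 111.9 CPM while the sgRELA means were 221.3 and 214.7 CPM. From day 5 to day 6 the difference between guides was larger by 0.438, with an interval of 0.187 to 0.688. Both intervals are for 1 gene chosen with these differences known, and they are not adjusted for the number of genes tested. They are therefore a description, and that they leave out 0 is not read as a test.

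PTPN2, the phosphatase gene, was higher with sgRELA by 1.41-fold, 1.42-fold and 1.41-fold on days 5, 6 and 7. In sgControl it stood at 110.5, 95.07 and 107.7 CPM on day 5, 71.68, 72.76 and 71.36 CPM on day 6, and 92.59, 92.24 and 89.57 CPM on day 7. In sgRELA the values were 142.8, 154.6 and 144.7 CPM on day 5, 97.84, 108.3 and 100.9 CPM on day 6, and 125.8, 122.4 and 138.6 CPM on day 7. On each day the guides did not overlap, although the sgRELA samples of day 6 were within the sgControl range of day 5. The log2 fold change was 0.497 ± 0.09 (SE) on day 5, 0.509 ± 0.09 on day 6 and 0.495 ± 0.09 on day 7, and 0.51 ± 0.05 with the days summed, from 89.3 ± 2.90 to 127.5 ± 4.43 CPM (SD, n = 3).

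Unlike that of LINC01882, the PTPN2 difference was nearly the same on the 3 days. The change from day 5 to day 6 was 0.012 (95% interval -0.253 to 0.276) and from day 6 to day 7 -0.013 (-0.278 to 0.252). The size depended on the libraries: with library replicate 1 of each RNA sample the summed value was 0.652, and with library replicate 2 it was 0.375. In sgControl replicate 1 on day 6, PTPN2 had 42.06 CPM in library 1 and 96.2 CPM in library 2, the widest library pair of any member. That library and library 1 of sgControl replicate 2 on day 5 had the fewest detected genes, and without both the day 6 value was 0.369.

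**Figure D1:**
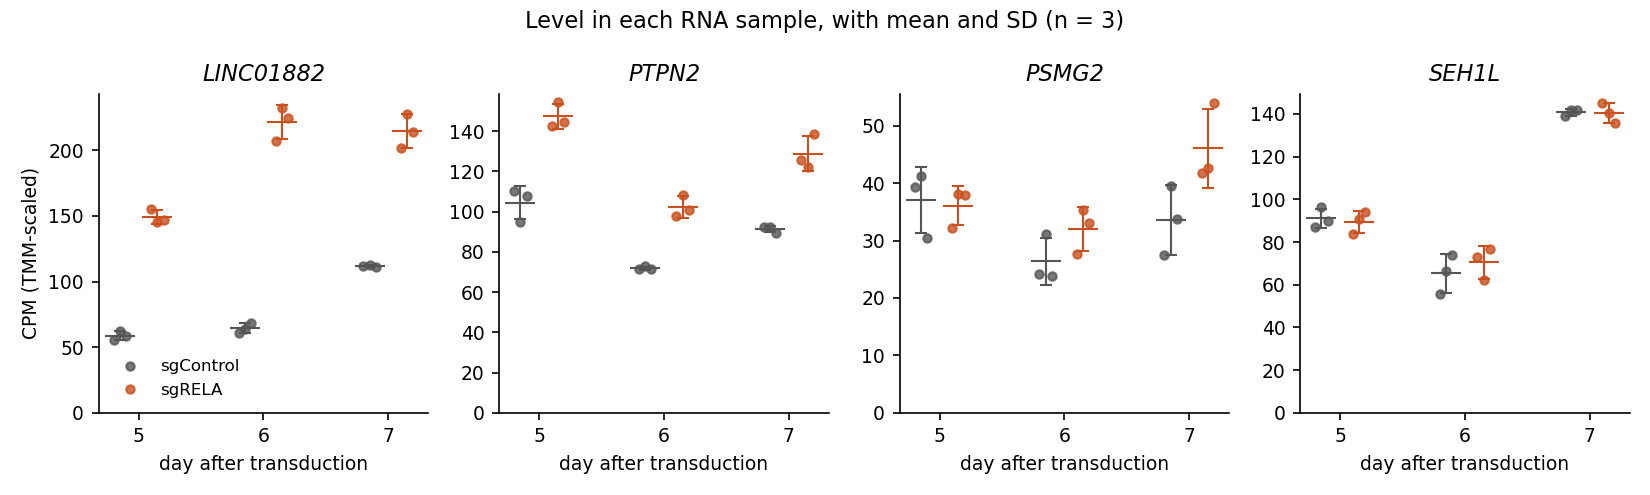
Level of the 4 members in CPM (linear axis from 0) by day after transduction, with a point for each RNA sample and the mean with SD (n = 3) for sgControl (grey) and sgRELA (orange). The guides were apart on every day for LINC01882 and PTPN2, and on day 7 for PSMG2, and SEH1L samples of both guides lay together.

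Both flanking genes gave smaller guide differences. PSMG2, the proteasome assembly gene, had 39.25, 41.32 and 30.47 CPM on day 5, 24.22, 31.13 and 23.85 CPM on day 6, and 27.45, 39.55 and 33.83 CPM on day 7 in sgControl. In sgRELA it had 32.14, 38.15 and 37.96 CPM on day 5, 27.73, 35.26 and 33.13 CPM on day 6, and 41.7, 42.6 and 54.03 CPM on day 7. The guides overlapped on days 5 and 6 and not on day 7, where the lowest sgRELA sample (41.7 CPM) was just above the highest sgControl sample (39.55 CPM). The log2 fold changes were -0.04 ± 0.16 (SE), 0.28 ± 0.16 and 0.46 ± 0.16, and 0.24 ± 0.10 with the days summed.

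SEH1L, the nuclear pore gene, was at nearly equal levels under the 2 guides. Its sgControl values were 87.22, 96.21 and 89.77 CPM on day 5, 55.6, 66.33 and 74.06 CPM on day 6, and 139.0, 141.7 and 142.0 CPM on day 7. Its sgRELA values were 83.57, 90.74 and 93.91 CPM, then 72.83, 62.02 and 76.88 CPM, then 145.1, 140.5 and 135.8 CPM. The guides overlapped on all 3 days, and the summed log2 fold change was 0.01 ± 0.05, with a 95% interval of -0.101 to 0.126.

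Non-overlapping guides with sgRELA above, as for LINC01882 and PTPN2 on each day, were seen for 5.85%, 5.91% and 5.24% of tested genes on days 5, 6 and 7 and 6.34% with the days summed. By the call rule used here (adjusted p under 0.05, edgeR), 0.138%, 0.214% and 0.0907% of tested genes were called between the guides in either direction on the single days and 0.363% with the days summed. Since the members were chosen with this comparison known, nothing is read from their place in it. With 1 replicate left out, the PTPN2 difference was 0.433 to 0.539 on day 5, 0.466 to 0.540 on day 6 and 0.437 to 0.530 on day 7.

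**Figure D2:**
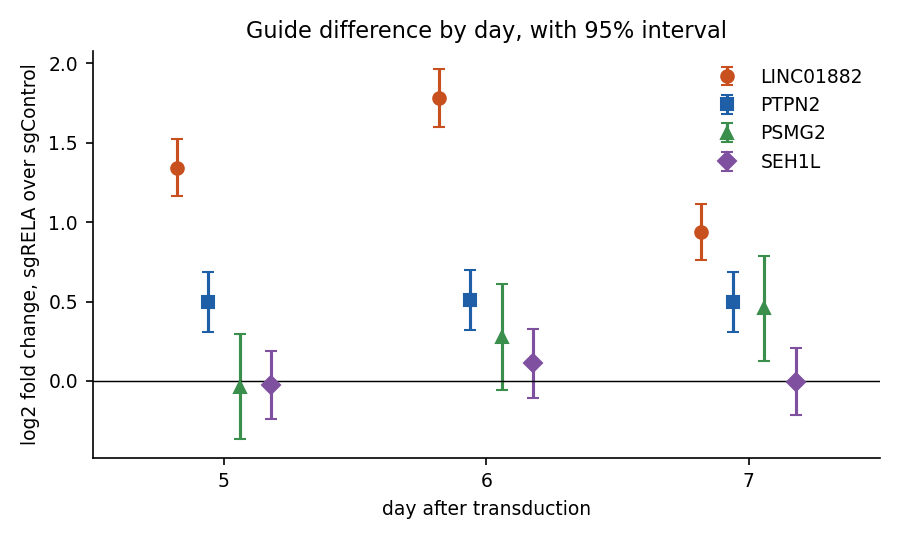
Log2 fold change of sgRELA over sgControl for each member by day after transduction, with 95% intervals. LINC01882 lies between 0.94 and 1.78 with its peak on day 6, PTPN2 stays near 0.5, and SEH1L lies between -0.03 and 0.11.

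All 4 members also differed between days. PTPN2 and SEH1L both fell from day 5 to day 6 and rose from day 6 to day 7, under each guide. For PTPN2 the log2 change from day 5 to day 6 was -0.54 ± 0.09 in sgControl (adjusted p = 0.000208, edgeR, here and below in this paragraph) and -0.53 ± 0.09 in sgRELA (0.000278). From day 6 to day 7 it was 0.35 ± 0.09 (0.0084) and 0.33 ± 0.09 (0.0128). Levels of PTPN2 on day 7 were not called different from day 5 (-0.19 in both guides, 0.194 and 0.19). All day 7 samples nevertheless stood below those of day 5 in each guide, so a return to the day 5 level is not shown. The day 6 samples were the lowest of each guide, with no overlap with either other day. The rise in sgControl was not called without the low-detection libraries (0.23, 0.122) or without sgControl replicate 3 (0.363, 0.0531). The rise in sgRELA was not called without sgRELA replicate 1 (0.32, 0.13) or replicate 3 (0.271, 0.221). These lists are not complete: the call was kept in 9 of 13 alternatives in sgControl and in 8 of 13 in sgRELA.

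SEH1L made the larger swing. From day 5 to day 6 its log2 change was -0.48 ± 0.11 in sgControl (adjusted p = 0.00303, edgeR, as for the other values of this paragraph) and -0.34 ± 0.11 in sgRELA (0.044). From day 6 to day 7 it was 1.11 ± 0.11 (3.06e-09) and 0.99 ± 0.11 (2.87e-08), about 2.16-fold and 1.99-fold. Its day 7 level was also above that of day 5, by 0.63 ± 0.10 (7.35e-05) and 0.65 ± 0.10 (4.56e-05). No sample of day 7 overlapped one of day 5 or day 6 in either guide. The first step in sgRELA was the least stable: it was not called without any 1 of the 3 sgRELA replicates (-0.412, -0.253 and -0.372) or without sgControl replicate 2 (-0.341), nor with the replicate number as a block (-0.344, adjusted p = 0.0573). In all, it was called in 5 of 13 alternatives. Its values ran from -0.448 with the first library set alone to -0.199 with the second alone.

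LINC01882 followed another course. In sgControl its level on day 6 was not called different from day 5 (log2 change 0.13, adjusted p = 0.444, edgeR), and it rose from day 6 to day 7 by 0.80 ± 0.09 (adjusted p = 4.26e-08). The sgControl values also enter the guide differences by day that were known when LINC01882 was chosen. These tests are therefore not independent of that choice. In sgRELA, given without a test, the samples of day 6 all stood above those of day 5 (0.57 ± 0.09), and those of days 6 and 7 overlapped (-0.04 ± 0.09). PSMG2 rose from day 6 to day 7 in sgRELA (0.53 ± 0.16, adjusted p = 0.0293). That call was lost without sgRELA replicate 1 (0.499), replicate 2 (0.659) or replicate 3 (0.423), and was kept in 8 of 13 alternatives in all. Its other steps were not called. The closest was day 5 to day 6 in sgControl (-0.49 ± 0.16, adjusted p = 0.059), which was called without the low-detection libraries (-0.507, adjusted p = 0.0435) and with DESeq2 (0.0254).

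Between days, calls were common in these data. LINC01882 is left out of these counts in both guides, since it was chosen with its guide differences by day known. From day 5 to day 6, 2 of the other 3 members, PTPN2 and SEH1L, fell in each guide. Of all tested genes, 5.58% fell in sgControl and 4.34% in sgRELA (3.29% and 2.57% rose). From day 6 to day 7, 2 of 3, PTPN2 and SEH1L, rose in sgControl and 3 of 3 in sgRELA, against 8.25% and 7.21% (6.31% and 5.02% fell). Between day 5 and day 7, 1 of 3, SEH1L, rose in each guide, against 6.65% and 6.35% (6.36% and 6.06% fell). Given without a test, the guide difference of PSMG2 on day 7 minus that on day 5 was 0.492, with a 95% interval of 0.025 to 0.959. For SEH1L the same value was 0.022, with an interval of -0.279 to 0.323. Both intervals are for single genes and are not adjusted for the number of genes tested. No change of the PSMG2 guide difference over the days is read from its interval.

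Per kilobase of GENCODE v29 exons, LINC01882 was the most abundant member in every group. It had 25.1 ± 1.46 CPM per kb (SD, n = 3) in sgControl on day 5 and 94.3 ± 5.54 CPM per kb in sgRELA on day 6. The other 3 genes lay between 6.23 and 16.9 CPM per kb as group means. In sgControl on day 5, PTPN2 (11.98 ± 0.943) and PSMG2 (11.03 ± 1.72) did not differ beyond their spread, with SEH1L at 8.69 ± 0.442 CPM per kb. These levels depend on gene models that may not be those the authors counted.

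The balance of LINC01882 to PTPN2 moved in both guides. As a ratio of their CPM levels, it was 0.568 ± 0.0795 (SD, n = 3) on day 5, 0.896 ± 0.0560 on day 6 and 1.22 ± 0.0145 on day 7 in sgControl. In sgRELA it was 1.02 ± 0.0719, 2.16 ± 0.0547 and 1.67 ± 0.168. In sgControl the samples of each later day were all above those of the day before, and in sgRELA the day 6 samples (2.117 to 2.223) were the highest.

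Reads could be shared between genes in places. Of the 50-base words in the GENCODE v29 transcripts of each member, LINC01882 shared 0 of 2298 with transcripts of other genes. PTPN2 shared 3.27%, mostly with the pseudogenes PTPN2P1 and PTPN2P2, and SEH1L shared 2.66%. PSMG2 shared 12.33%, nearly all with CEP76, which lies inside the PSMG2 body on the opposite strand and encodes a centrosomal protein. PTPN2P1 stood at 5.23 ± 0.761 CPM in sgControl and 5.06 ± 0.945 CPM in sgRELA with the days summed, and these overlapped. Strand use in counting is not given in the sources used here, so PSMG2 and CEP76 levels are uncertain where they overlap. The same-strand gene ENSG00000266961 overlaps the body of LINC01882, but their GENCODE v29 transcripts share none of these words. Other gene models were not searched. ENSG00000266961 had 73 counts in all libraries together, against 58157 for LINC01882.

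Genes around LINC01882 outside the members were not called between the guides by edgeR. GENCODE v29 has 32 genes within 500 kb of its body, and 14 of the 28 other than the members could be tested with the days summed. By edgeR, 0 of these 14 were called, against 0.363% of all tested genes. Of the 14, 2 had an unadjusted p under 0.05, against 1947 of all 28888. DESeq2 called 1, LDLRAD4. On single days edgeR called 0 of 12, with 2, 3 and 1 at an unadjusted p under 0.05 on days 5, 6 and 7, and DESeq2 called LDLRAD4 on day 6. Over all tested genes, edgeR called 0.138%, 0.214% and 0.0907% on those days, and 1641, 1672 and 1290 of 27553 had an unadjusted p under 0.05. Calls were thus rare for any gene, and 0 calls among so few genes says little about the locus. The median log2 fold change of the 14 was 0.141, with 11 of 14 above 0, against a median of -0.002 over all tested genes. Several of the 14 were under 1 CPM in both guides with wide errors, such as CEP192-DT (1.252 ± 0.967, SE). The signs of these low genes therefore say little. The signs above 0 were not confined to them, however. Of the genes with at least 1 CPM in a guide, TUBB6, CEP76, LDLRAD4, C18orf15, AFG3L2, SPIRE1 and CEP192 were above 0, at 0.042 to 0.431. ENSG00000267249 (-0.151) was below. No shift of the neighbourhood was tested. SPIRE1, which encodes an actin nucleator and lies next to PSMG2, had 0.07 ± 0.12 (SE, adjusted p = 0.976). On the far side, next to SEH1L, CEP192, which encodes a centrosome protein, had 0.04 ± 0.05 (adjusted p = 0.944), and the low antisense gene CEP192-DT had 0.309 and 0.128 CPM. CEP76 was at 25.2 ± 0.956 CPM in sgControl and 29.9 ± 1.63 CPM in sgRELA (0.25 ± 0.09, adjusted p = 0.501), with no overlap. LDLRAD4, a membrane protein gene and chosen after its values were seen, had 498.0 ± 17.1 and 558.8 ± 6.88 CPM (0.17 ± 0.04, adjusted p = 0.0528), also with no overlap.

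**Figure D3:**
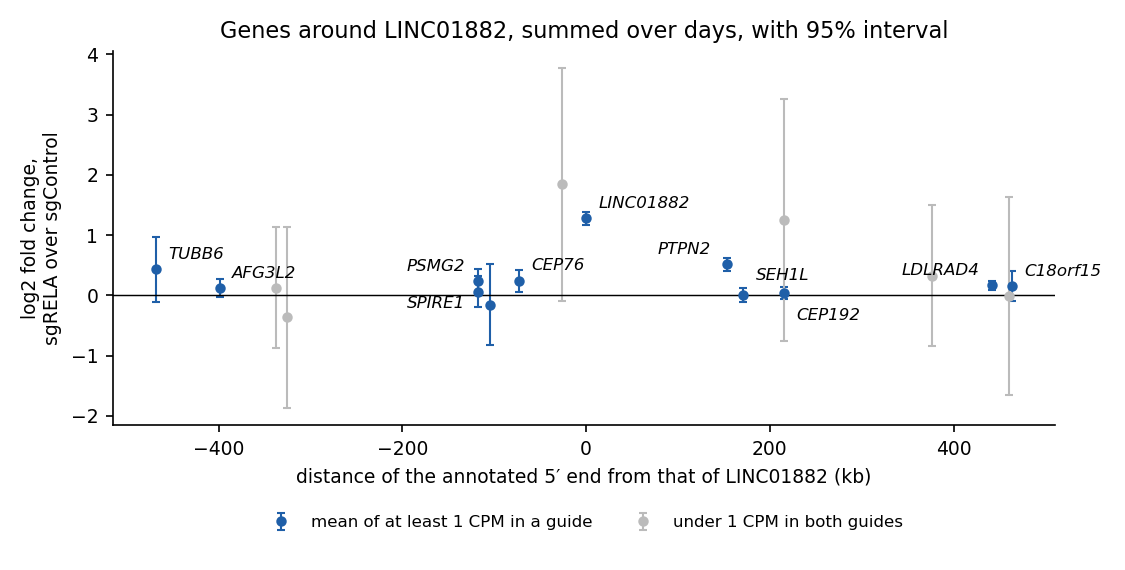
Log2 fold change of sgRELA over sgControl with the days summed, with 95% intervals, against the distance in kb of each tested gene's annotated 5′ end from that of LINC01882, with grey for genes under 1 CPM in both guides. LINC01882 at 1.28 and PTPN2 at 0.51 lie highest among the genes drawn in blue, and the grey genes have wide intervals.

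Between days, of the 12 tested neighbours, 2 (LDLRAD4 and TUBB6) rose from day 5 to day 6 in sgControl and 1 (LDLRAD4) in sgRELA. Over all tested genes, 3.29% and 2.57% rose in that step. In the next step 3 (LDLRAD4, CEP76 and CEP192) rose and 1 (TUBB6) fell in sgControl, and edgeR called 0 in sgRELA, where 1 had an unadjusted p under 0.05 and DESeq2 called 1, CEP192. The shares of all tested genes in that step were 8.25% up and 6.31% down in sgControl, and 7.21% up and 5.02% down in sgRELA. LDLRAD4 rose from day 5 to day 6 under both guides, by 0.48 ± 0.07 (adjusted p = 3.27e-05, edgeR) in sgControl and 0.54 ± 0.07 (6.47e-06) in sgRELA, the step in which PTPN2 and SEH1L fell. CEP192 rose from day 6 to day 7 in sgControl (0.30 ± 0.09, adjusted p = 0.0211), a call that was lost without sgControl replicate 1 (0.18). CEP76 was called in that step too (0.57 ± 0.17, adjusted p = 0.0195), and this was likewise lost without that replicate (0.37). Without any 1 replicate of sgControl or sgRELA the LDLRAD4 value for day 5 to day 6 was between 0.427 and 0.525 in sgControl. TUBB6, a tubulin gene with group means of 1.183 to 4.514 CPM, lost its first call without sgControl replicate 1 or replicate 3 and its second without replicate 3, with values of 1.227 to 2.176 and -2.103 to -1.675 over the samples left out. LDLRAD4, CEP76 and TUBB6 were named after their values were seen.

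Several partners of SEH1L in the nuclear pore changed between days, and not all in the direction of SEH1L. Of the 9 other genes of the Nup107-160 complex, 6 fell from day 5 to day 6 in sgControl, and 5 fell and 1 rose in sgRELA. In the following step, from day 6 to day 7, 8 of 9 rose in sgControl and 7 of 9 in sgRELA. Over all tested genes, 5.58% fell in the first step in sgControl, and 4.34% fell and 2.57% rose in sgRELA. In the following step 8.25% and 7.21% rose. The medians of the 9 genes were -0.329 and 0.493 in sgControl and -0.480 and 0.622 in sgRELA, against 0.040 and -0.069, and 0.031 and -0.059, over all tested genes. NUP107 had 84.7 ± 7.83 CPM on day 5, 59.0 ± 12.5 CPM on day 6 and 115.8 ± 5.40 CPM on day 7 in sgControl, a rise of 0.97 ± 0.13 in the last step (adjusted p = 1.11e-06, edgeR). Its sgRELA levels were 84.1 ± 12.6, 57.0 ± 2.21 and 107.0 ± 8.63 CPM. NUP85, a scaffold partner that binds SEH1L directly, rose in the same step by 0.64 ± 0.11 (3.97e-05) in sgControl and 0.84 ± 0.11 (6.77e-07) in sgRELA. NUP160 rose by 0.67 ± 0.10 (1.56e-05) and 0.78 ± 0.10 (2.1e-06), and NUP133 by 0.49 ± 0.10 (0.000514) and 0.62 ± 0.10 (3.06e-05). SEC13, which is also a COPII coat protein and was named after its values were seen, was the 1 gene that rose from day 5 to day 6 in sgRELA (0.49 ± 0.11, adjusted p = 0.00296), and it was not called from day 6 to day 7 in either guide. NUP85 was level from day 5 to day 6 in sgControl (0.008 ± 0.11, not called). From day 5 to day 7, where SEH1L rose in both guides, 2 of the 9 partners rose in each, NUP107 and NUP85 in sgControl and SEC13 and NUP85 in sgRELA. The shares of all tested genes that rose were 6.65% and 6.35%.

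Leaving out 1 replicate thinned these Nup107-160 counts without turning any called direction among the named genes. The fall in sgControl was called for 2 of 9 without sgControl replicate 1, and that in sgRELA for 2 of 9 without sgRELA replicate 2, when SEC13 was not called either. The rise in sgControl was called for 5 of 9 without sgControl replicate 1 or replicate 2, and that in sgRELA for 4 of 9 without sgRELA replicate 1. None of the 9 genes was called between the guides by edgeR or DESeq2 on any day or with the days summed, and 2, 0 and 0 had an unadjusted p under 0.05 on days 5, 6 and 7, and 0 with the days summed. As edgeR called only 0.0907% to 0.363% of all tested genes in these comparisons, 0 of 9 says little.

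**Figure D4:**
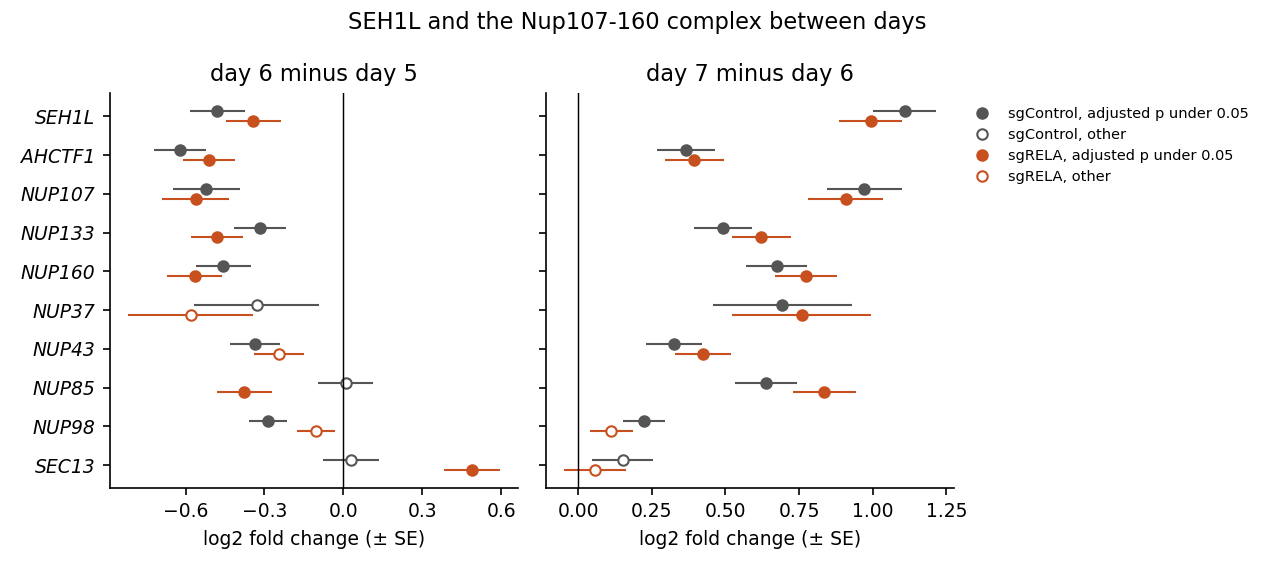
Log2 fold change with SE between successive days for SEH1L and the 9 other genes of the Nup107-160 complex, in sgControl (grey) and sgRELA (orange), filled where the adjusted p was under 0.05. From day 6 to day 7 all points lie above 0, with SEH1L at 1.11 and 0.99 and NUP107 at 0.97 and 0.91.

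SEH1L is also a subunit of GATOR2, which acts on GATOR1, and 6 other genes of both complexes were tested. MIOS, a GATOR2 subunit, was the 1 gene that edgeR called between days, and DESeq2 also called DEPDC5, a GATOR1 subunit, from day 5 to day 6 in sgControl. Over all tested genes in sgRELA, 4.34% fell from day 5 to day 6 and 6.06% from day 5 to day 7. In sgRELA MIOS fell from 64.2 ± 1.87 CPM on day 5 to 43.9 ± 7.70 CPM on day 6 (-0.55 ± 0.16, adjusted p = 0.0266, edgeR) and 40.8 ± 3.29 CPM on day 7. The call for day 6 was lost without sgRELA replicate 1 or replicate 3 (-0.686 to -0.473 with 1 left out) and that for day 7 against day 5 without replicate 3 (-0.704 to -0.632). None of these 6 genes, nor of the 8 proteasome chaperones that follow, was called between the guides by edgeR or DESeq2. For GATOR 0, 1, 1 and 0, and for the chaperones 0, 1, 0 and 0, had an unadjusted p under 0.05 on days 5, 6 and 7 and with the days summed. With 0.0907% to 0.363% of all tested genes called by edgeR in these comparisons, 0 calls in lists this short says little. Among the 8 proteasome assembly chaperones other than PSMG2, PSMG1, the partner with which PSMG2 forms a heterodimer, rose from day 6 to day 7 in both guides. It went from 30.2 ± 3.09 to 61.6 ± 3.92 CPM in sgControl (1.03 ± 0.13, adjusted p = 3.54e-07) and from 32.7 ± 1.66 to 64.6 ± 5.58 CPM in sgRELA (0.98 ± 0.13, adjusted p = 8.56e-07). POMP, which matures the core particle, also rose in that step, by 0.98 ± 0.16 (adjusted p = 4.48e-05) and 0.53 ± 0.16 (0.0254), the latter lost without sgRELA replicate 1 or replicate 2 (range with 1 left out 0.441 to 0.647). In all, 3 of 8 rose in that step in sgControl and 2 of 8 in sgRELA, against 8.25% and 7.21% of all tested genes.

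The genes that act with PTPN2 were not called between the guides. Of 17 tested genes for its substrates and their signalling partners, 0 were called by edgeR or DESeq2 on any day or with the days summed, and 1, 0, 1 and 5 had an unadjusted p under 0.05 on days 5, 6 and 7 and with the days summed. Their median log2 fold change was 0.034, with 12 of 17 above 0, against -0.002 over all tested genes. Of 10 other tyrosine phosphatases of T cells, 0 were called by edgeR, 0, 3, 0 and 4 had an unadjusted p under 0.05 in the same 4 comparisons, and DESeq2 called 1 on day 6, PTPRC. Over all tested genes, edgeR called 0.138%, 0.214%, 0.0907% and 0.363% in these comparisons. An unadjusted p under 0.05 was held by 1641, 1672 and 1290 of 27553 genes on the single days and 1947 of 28888 summed. With calls this rare, 0 calls in lists this short says little about them. Between days some genes of both lists moved. LCK, a kinase that PTPN2 acts on, rose from day 6 to day 7 in sgControl (0.52 ± 0.09, adjusted p = 4.26e-05, edgeR) and in sgRELA (0.51 ± 0.09, 7.11e-05). INSR, the insulin receptor gene, fell in that step by 0.495 ± 0.11 (0.00102) and 0.49 ± 0.11 (0.00152), where PTPN2 rose. IFNGR1, a chain of the interferon gamma receptor, fell from day 5 to day 7 by 0.65 ± 0.14 (0.0012) and 0.99 ± 0.14 (4.46e-06), and STAT5B by 0.43 ± 0.09 in each guide (0.00145 and 0.00149), the sgRELA call being lost without sgRELA replicate 2 (-0.36). PTPN7 rose from day 5 to day 7 in both guides (0.53 ± 0.09, adjusted p = 3.76e-05, and 0.45 ± 0.09, 0.000405). PTPRC, the CD45 phosphatase gene, rose from day 5 to day 6 in sgRELA (0.44 ± 0.07, adjusted p = 0.000152) and fell from day 6 to day 7 (-0.36 ± 0.07, adjusted p = 0.000706), with means of 1043, 1414 and 1103 CPM. Of the 17 substrates and partners, 1 rose and 2 fell from day 6 to day 7 in sgControl, and 1 rose and 3 fell in sgRELA. Over all tested genes, 8.25% rose and 6.31% fell in sgControl, and 7.21% rose and 5.02% fell in sgRELA. Nothing is read from counts this small for the list as a whole.

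Over the 18 RNA samples, the genes whose levels were most like those of LINC01882 were CD79A (Pearson r = 0.888 of log2(CPM + 1)), MIR29B2CHG (0.878), RNPEP (0.872), NFKBIA (0.866) and SESN3 (0.863). The search covered 12529 genes whose mean was 5 CPM or more. CD79A went from 17.9, 21.2 and 20.8 CPM in sgControl on days 5, 6 and 7 to 56.1, 54.6 and 57.6 CPM in sgRELA. RNPEP, an aminopeptidase gene, went from 37.7, 36.7 and 34.5 CPM to 97.5, 122.6 and 100.7 CPM. For PTPN2 the nearest were TNFAIP3 (0.868), SETD5 (0.866), RTN4 (0.860), PAIP2 (0.851) and LONRF1 (0.849). TNFAIP3, which encodes the NF-kB inhibitor A20, stood at 64.9 ± 7.51, 41.4 ± 5.18 and 45.9 ± 6.11 CPM (SD, n = 3) on days 5, 6 and 7 in sgControl and at 111.1 ± 5.55, 74.7 ± 12.2 and 78.3 ± 6.89 CPM in sgRELA. Its levels on days 6 and 7 did not differ beyond their spread, unlike those of PTPN2. LINC01882 and PTPN2 themselves gave 0.572, and PSMG2 and PTPN2 0.657. All these values share the same guide and day groups and the same libraries, so they describe the samples and carry no test.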

How the data were processed

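The authors deposited raw counts of reads for each gene, which per the labels were not normalized. The submitters' processing notes name cutadapt 1.18, STAR 2.7.9a and GRCh38, and the annotation, counting tool, strand setting and treatment of reads with several matches are not given in the sources used here. Groups, replicates and columns were taken from the labels. The labels give 3 transductions per guide but not whether the days were sampled from the same cultures.

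The counts of both libraries of an RNA sample were added. The 18 sums were fitted with edgeR 4.0.16 in R 4.3.3 (TMM, factors 0.971 to 1.08, filterByExpr with a minimum count of 10, quasi-likelihood F test) with a mean for each of 6 groups, over 27553 tested genes. The guide comparison with the days summed used 3 sums against 3, over 28888 genes. Benjamini-Hochberg adjustment ran over all tested genes, and calls required an adjusted p under 0.05. The SE was derived from F. The guide and day comparisons were tested on simulated counts with known changes and with none. Alternatives were DESeq2 1.42.0 as the test or for size factors, no filter on low counts, each library set alone, a replicate block, days as terms, each replicate left out, and the 2 libraries with the fewest detected genes left out.

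The members and gene lists were chosen with earlier results of these data known. Tests planned for PTPN2, PSMG2 and SEH1L between guides, and of their interaction of guide and day, are given as a description for that reason. Named genes were RELA, the members, locus genes called between guides and the nearest on each side, up to 4 called genes per list with the smallest p, and the 5 genes most like LINC01882 and PTPN2.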

Additional observations from a re-analysis of the deposited data

Results flagged for a closer look

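In 4 of 24 groups searched, 1 library lay far from the other 5 of the same guide and day, and chance gives about 1 in 20. With 2 libraries per RNA sample, the 6 values are not independent. LINC01882 had 166.7 CPM in library 1 of sgRELA replicate 1 on day 5, where the others had 141.4 to 150.3 CPM. It had 256.0 CPM in library 1 of sgRELA replicate 2 on day 7, against 197.1 to 218.3 CPM. PTPN2 had 166.2 CPM in library 1 of sgRELA replicate 2 on day 5, against 138.8 to 146.3 CPM. PSMG2 had 37.31 CPM in library 1 of sgControl replicate 2 on day 6, against 23.19 to 27.35 CPM. All 4 were above the others and all 4 were of the first library set.

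The guide difference of LINC01882 stood out by its change between days, -0.84 on the log2 scale from day 6 to day 7 (SE 0.122). The gene was chosen with its guide differences known, so this is a description.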

How the results depend on the processing

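For the members, 524 values were recomputed. Differences between guides, and LINC01882 in sgRELA between days, have no test and were compared by size only, and 22 of them moved by more than the spread between replicates. Of the tested changes between days, 28 lost a call and 4 gained one. In all, 13 values changed sign, 11 of them guide differences of PSMG2 on day 5 (-0.036) or of SEH1L on day 5 (-0.026), day 7 (-0.004) or summed (0.012). With 1 replicate left out, the summed difference of PSMG2 was 0.169 to 0.353 and that of SEH1L on day 6 was 0.008 to 0.213, within the spread. Guide differences that moved further did so with 1 library set alone, with days as terms or without the 2 libraries with the fewest detected genes. With the first set alone they were 1.423 on day 5, 1.046 on day 7 and 1.341 summed for LINC01882, 0.669, 0.751, 0.571 and 0.652 (days 5, 6, 7 and summed) for PTPN2 and -0.033 summed for SEH1L. With the second set alone they were 1.258, 0.84 and 1.22 for LINC01882 and 0.329, 0.332, 0.416 and 0.375 for PTPN2. Days as terms gave 1.352 for LINC01882. Without those 2 libraries, PTPN2 on day 6 gave 0.369 and SEH1L summed -0.038. The PSMG2 change from day 5 to day 7 in sgControl, not called, was -0.264 to 0.031 with 1 replicate left out, and changed sign without sgControl replicate 1. That of LINC01882 from day 6 to day 7 in sgRELA (-0.044) was 0.039 with the first set alone. Of the 28 lost calls, 9 came with the first library set alone, 5 with the second and 10 with 1 replicate left out. The cause was not tested.

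Same-numbered samples of both guides on 1 day deviated together with r of -0.009 to 0.06 (9 pairs, 15514 genes), against -0.051 to 0.034 for unlike numbers (18 pairs). Between days within a guide, r was -0.112 to 0.045 for the same number (18 pairs) and -0.097 to 0.139 for unlike numbers (36 pairs). No shared deviation by replicate number was thus seen, which cannot show whether the samples were paired by design. With the replicate block, the PSMG2 change from day 5 to day 6 in sgControl was called (-0.492, adjusted p = 0.0387) and that of SEH1L in sgRELA was not (-0.344, adjusted p = 0.0573).

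Genes called between guides numbered 38, 59 and 25 on days 5, 6 and 7 and 105 summed, and ranged over the alternatives from 15 to 73, 15 to 126, 13 to 55 and 42 to 224. The lowest came with the first library set. Between days, the 6 counts of 1904 to 4012 genes fell to 196 to 1879 with the first set. The interaction called 1 gene, and 0 to 24 over the alternatives.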
